A study of Mus musculus with 6 samples.

Results

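Glucose taken up by a monocyte is broken down to pyruvate by glycolysis, and pyruvate is either reduced to lactate and exported or carried into mitochondria, where the pyruvate dehydrogenase (PDH) complex turns it into acetyl-CoA for the TCA cycle. Pyruvate dehydrogenase kinases switch that complex off by phosphorylating its E1 alpha subunit. The pentose phosphate pathway branches from the first glycolytic intermediate and supplies NADPH and ribose. Activated monocytes and macrophages are known for high glycolytic activity, and the transcription factor HIF-1 drives many of these genes. The genes described here were 40 named genes of these pathways among the 54232 genes of the deposited files, chosen by name for their role and matched by gene identifier to GENCODE M21 symbols. They comprised 2 genes of glucose uptake, 3 hexokinases, 7 genes of upper glycolysis, 6 of lower glycolysis, 4 of lactate formation and transport, 4 regulators, 8 of pyruvate entry into mitochondria and 6 of the pentose phosphate pathway.

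RNA-seq was performed on monocytes sorted from the CNS at the peak of EAE, a mouse model of multiple sclerosis induced by immunization with a myelin antigen. Lethally irradiated GFP+ recipient mice had been reconstituted with BM of WT donors, which carry CD45.1, mixed in equal parts with BM of Ifnar1-/- donors, which carry CD45.2, and every mouse received rIFN-β at 30000 IU daily. Ifnar1 encodes a chain of the type I IFN receptor. GFP-CD45+CD11b+Ly6ChiLy6G- cells of the 2 genotypes gave 3 WT and 3 Ifnar1-/- libraries. All libraries came from treated mice with EAE and none of those used here from PBS-treated mice, so the comparison was of monocytes with and without the receptor in the same treated environment. The groups also differed in CD45 allele and donor, WT cells may have come from the same recipients as Ifnar1-/- cells, and no label used here ties a library to a mouse. P-values measure only the spread between these libraries, which may be partly technical.

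Libraries held 4531782 to 7321380 expected counts, which RSEM estimates by dividing reads that match several genes. Ifnar1 itself measured 153, 126 and 111 normalized CPM (counts scaled by the TMM-adjusted library size to a total of 1000000) in the WT group (libraries 1, 2 and 3, in that order here and below) against 110, 102 and 109 in the Ifnar1-/- group, and a count over the whole gene does not test a deleted part. All 8 monocyte markers were tested, of which 5 had positive and 3 negative log2 fold changes (median 0.09, lowest -0.62). Of these, Ly6c2, part of the sorting antigen, was called higher in WT monocytes (log2 fold change 1.40, SE 0.23, edgeR adjusted p = 0.00957), and Fcgr1 had the next largest value (0.71, SE 0.18, adjusted p = 0.0839). The 9 T cell markers summed to 96.7 to 133 normalized CPM across WT libraries and 47.8 to 55.7 in Ifnar1-/- libraries; the 7 tested all had positive values and 0 were called, and the largest were those of Cd4 and Cd3d (log2 fold changes 1.80 and 1.74). The 9 neutrophil markers summed to 427 to 1986 and 847 to 2290, with Ly6g at 0 to 4 counts, and 2 of the 8 tested had positive and 6 negative log2 fold changes (median -0.18, from -0.82 for S100a8 to 0.82 for Csf3r and 0.83 for Retnlg), with 0 called. The 5 B cell markers summed to 0.305 to 1.71 and the 6 erythroid markers to 0 to 4.597, too low to be tested. The 8 microglial markers summed to 257 to 330 and 297 to 374, the 6 dendritic cell markers to 20.2 to 27.8 and 12.9 to 24.7, and the 8 neuronal and glial markers to 58.2 to 72.0 and 49.8 to 63.8. The part that these other cells took in the values below was not tested, and in bulk samples fewer cells of a type and less RNA per cell cannot be told apart.

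To describe the sequence upstream of these genes, the 250 bases upstream of each annotated start in RefSeq (GRCm38.p6) were searched on both strands. RefSeq windows were at hand for 39 of the 40 genes, all but Slc2a3. The HIF-1 core motif (ACGTG or GCGTG) was present in at least 1 window of 35 of the 39 genes (89.7%), against 63.0% of 8189 tested genes with a window. With only the window nearest to the GENCODE start of each gene, the shares were 82.1% and 58.8%, and the median number of CpG dinucleotides per window was 16 in both. The core of the IFN-stimulated response element (GAAA, any 2 bases, GAAA) was in none of the 39 genes' windows and in 3.68% of tested genes. The core of the STAT-binding GAS element (TTCNNNGAA) was found in windows of Aldoc and Pfkm, or 5.13% of the 39 genes, against 7.36% of tested genes. These shares describe letters in short windows and say nothing of binding. The upstream windows of Pdk1 (chr2:71872974-71873223, plus strand), Pdk3 (chrX:93832151-93832400, minus strand) and Pgk1 (chrX:106186850-106187099, plus strand) are shown 5′ to 3′. They were chosen because the 2 kinases exchanged rank between the genotypes and Pgk1 was the glycolytic gene whose groups did not overlap in normalized CPM. None of these genes was called, and 23.4% of all tested genes lacked overlap in either direction. Capitals mark HIF-1 core motifs on either strand.
Pdk1: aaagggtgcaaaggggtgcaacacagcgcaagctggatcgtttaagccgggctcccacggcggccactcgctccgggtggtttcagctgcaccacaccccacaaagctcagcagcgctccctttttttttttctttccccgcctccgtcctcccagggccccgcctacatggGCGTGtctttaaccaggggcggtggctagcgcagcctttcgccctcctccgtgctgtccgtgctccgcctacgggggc
Pdk3: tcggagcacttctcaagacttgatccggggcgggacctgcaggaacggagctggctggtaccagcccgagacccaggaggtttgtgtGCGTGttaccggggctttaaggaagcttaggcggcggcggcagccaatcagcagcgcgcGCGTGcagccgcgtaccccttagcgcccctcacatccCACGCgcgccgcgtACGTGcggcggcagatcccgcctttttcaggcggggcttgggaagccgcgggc
Pgk1: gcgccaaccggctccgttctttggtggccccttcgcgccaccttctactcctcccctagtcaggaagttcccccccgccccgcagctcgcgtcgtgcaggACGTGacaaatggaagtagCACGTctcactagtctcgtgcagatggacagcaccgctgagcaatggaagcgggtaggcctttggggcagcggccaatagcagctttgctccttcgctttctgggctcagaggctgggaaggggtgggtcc
The Pdk1 window held 1 core, that of Pdk3 held 4 and that of Pgk1 held 2.

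Differential expression was tested with edgeR across 11254 genes and a gene was called where its adjusted p did not exceed 0.05 and it changed 1.5-fold or more. Of the 40 genes, 39 passed the filter on low counts, and 0 of them were called in either direction. Over all tested genes 2.13% were called, 1.67% as higher and 0.462% as lower in WT monocytes, so a set of 39 genes with 0 calls stood close to this background. The log2 fold changes of WT over Ifnar1-/- monocytes were positive for 20 genes and negative for 19, with a median of 0.00041 beside -0.014 for all tested genes. The lowest adjusted p was 0.118, for Pdha1, and 5 genes had an unadjusted p below 0.05 (Pdha1, Mpc2, Pdk1, Slc16a1 and Pdk3), as did 2006 of all tested genes (17.8%). For 21 of the 39 genes the 95% confidence interval of the change lay inside 1.5-fold in both directions, as it did for 30.7% of all tested genes, and for 36 it lay inside 2-fold. The 3 genes with wider intervals were Slc2a3, Pdk2 and Mpc2. Eno2, the neuronal enolase, had 0.184 to 1.57 normalized CPM and was not tested.

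**Figure D1:**
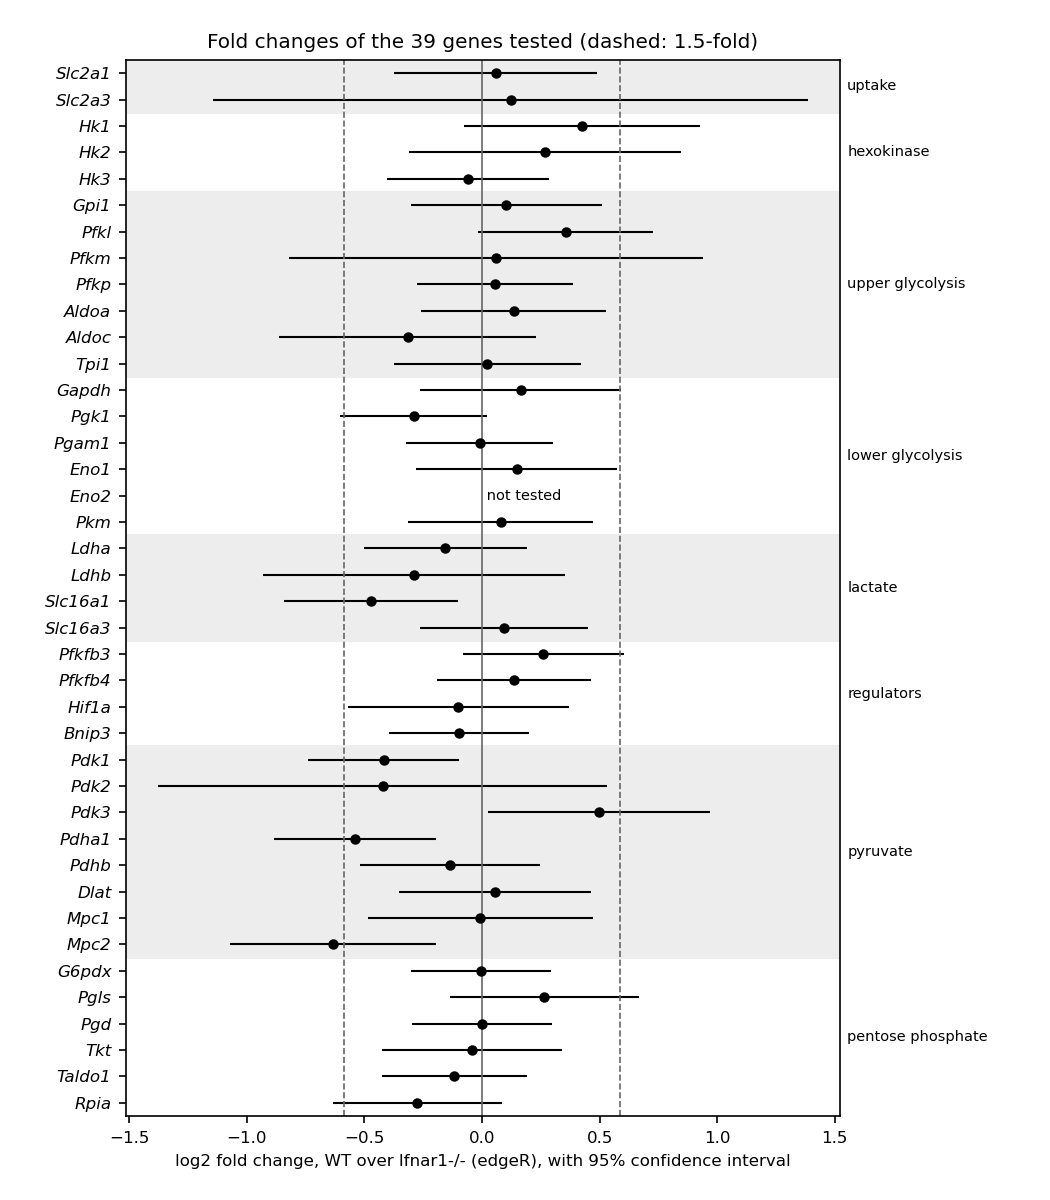
Log2 fold change of WT over Ifnar1-/- monocytes (x axis) for each of the 39 genes tested, ordered by role, with edgeR's 95% confidence interval as bars and a fold change of 1.5 in each direction as dashed lines. The intervals of Slc16a1, Pdk1, Pdha1 and Mpc2 lay below 0 and that of Pdk3 above 0, none of these 5 genes was called, and Slc2a3 had the widest interval.

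By length-corrected level, glycolytic enzymes were among the most abundant transcripts of these monocytes. On the TPM scale (transcript counts corrected for length, rescaled so that nuclear protein-coding genes sum to 1000000 in each library), Gapdh, which oxidizes glyceraldehyde 3-phosphate, measured 2516 ± 332 in WT and 2216 ± 414 in Ifnar1-/- libraries (SD, n = 3 each). Pkm, the final pyruvate kinase step, measured 2063 ± 235 and 1927 ± 205, Aldoa 1791 ± 101 and 1603 ± 264, Eno1 1526 ± 298 and 1353 ± 176, and Ldha 1358 ± 137 and 1489 ± 139. Averaged over the 6 libraries, these 5 genes lay above 98.6% to 99.3% of tested genes, and the ranges of each neighbouring pair overlapped, although Gapdh lay above Pkm and Pkm above Aldoa within every library. Next came Pgk1, Gpi1, Tpi1 and Pgam1 at 607 to 751 TPM. The lowest members were Pdk2, Pfkm and Eno2, at 2.52 to 3.63 TPM. All 40 genes together took 1.51% to 1.79% of this TPM in the 6 libraries, with the 2 groups overlapping (15609 to 17902 TPM in WT and 15053 to 17447 in Ifnar1-/- libraries).

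**Figure D2:**
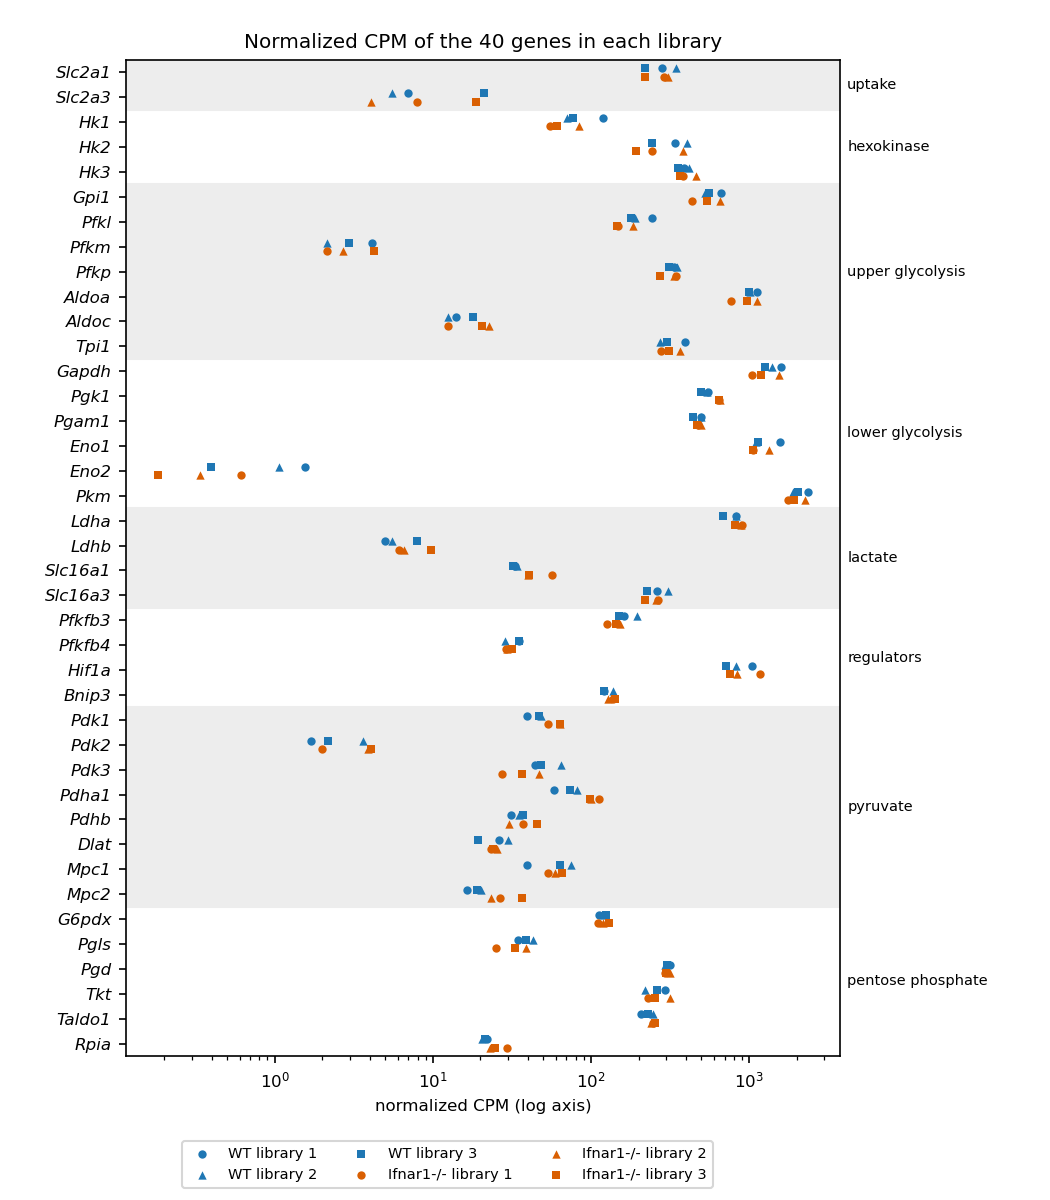
Normalized CPM (log axis) of the 40 genes in each WT (blue) and Ifnar1-/- (orange) library, with circles, triangles and squares for libraries 1, 2 and 3 and grey bands for alternate roles. Between the lowest and the highest gene the levels spanned from 0.184 (Eno2) to 2344 (Pkm) normalized CPM, and in most rows the blue and orange points overlapped.

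Glucose is taken up by facilitative transporters, and of the 2 described here GLUT1, encoded by Slc2a1, predominated. Its share of their TPM was 94.6% ± 5.1 in WT and 94.2% ± 7.0 in Ifnar1-/- libraries (SD, n = 3). Slc2a1 measured 280, 346 and 221 normalized CPM in WT and 288, 305 and 221 in Ifnar1-/- libraries. The groups overlapped, with a log2 fold change of 0.06 (95% confidence interval -0.38 to 0.49). Slc2a3, which encodes the high-affinity transporter GLUT3, measured 6.97, 5.53 and 20.9 in WT and 7.94, 4.07 and 18.8 in Ifnar1-/- libraries, so library 3 was highest in each genotype. Its highest value was 5.15 times its lowest, the widest spread among the 39 genes tested.

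Hexokinases trap glucose as glucose 6-phosphate. Hk3, the form typical of myeloid cells, took the largest share of hexokinase TPM in every library, 57.7% ± 2.5 in WT and 64.7% ± 4.4 in Ifnar1-/- monocytes, followed by Hk2 (31.3% ± 3.3 and 25.9% ± 4.2) and Hk1 (10.9% ± 2.8 and 9.46% ± 0.26). The 3 shares kept this order in all 6 libraries, and the groups overlapped for each. Hk1 measured 120, 70.4 and 77.2 normalized CPM in WT and 55.3, 83.5 and 60.9 in Ifnar1-/- libraries, and the log2 fold change was 0.43 with an SE of 0.23 (adjusted p = 0.354). Hk2, the inducible form, measured 340, 403 and 242 in WT and 243, 382 and 193 in Ifnar1-/- libraries, with a log2 fold change of 0.27 (95% confidence interval -0.31 to 0.85).

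In upper glycolysis, phosphofructokinase is the committed step, and its platelet-type (Pfkp) and liver-type (Pfkl) forms made up nearly all of its TPM. Pfkp took 60.2% ± 4.9 in WT and 61.2% ± 2.2 in Ifnar1-/- libraries, Pfkl took 39.1% ± 4.5 and 37.98% ± 2.47, and the muscle form Pfkm took 0.372% to 1.60% of the family over the 6 libraries. Pfkl measured 243, 189 and 180 normalized CPM in WT and 149, 185 and 146 in Ifnar1-/- libraries, and the groups overlapped at 1 library (log2 fold change 0.36, SE 0.17, adjusted p = 0.298). With offsets for GC content and gene length its log2 fold change was 0.08. The other 5 genes of upper glycolysis, Gpi1, Pfkp, Aldoa, Aldoc and Tpi1, had log2 fold changes of -0.32 to 0.13. Aldoa supplied 98.4% to 99.3% of aldolase TPM. Counts of Pfkm, 2.13 to 4.23 normalized CPM, were far below those of Senp1, which overlaps it on the opposite strand, and reads of the pair could be told apart only if strand was used in counting, which is not stated in the sources used here.

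In lower glycolysis, the groups did not overlap for 1 of 5 genes tested, Pgk1, beside 23.4% of all tested genes in either direction. Pgk1, phosphoglycerate kinase 1 (chrX:106187100-106203699), makes the first ATP of the pathway. It measured 551, 543 and 499 normalized CPM in WT and 647, 657 and 644 in Ifnar1-/- libraries. All WT values lay below all Ifnar1-/- values, and the log2 fold change was -0.29 with an SE of 0.14 (adjusted p = 0.308), which is under 1.5-fold. Gapdh, Pgam1, Eno1 and Pkm had log2 fold changes of -0.01 to 0.16 with overlapping groups. For Gapdh, Pgk1, Pgam1, Eno1 and Pkm, expected counts were not whole in any of the 6 libraries. Some of their reads were thus divided with other annotated genes, which were not examined, and these values are uncertain to that extent. The same limit held for 13 of the 40 genes in at least 1 library, including Gpi1, Bnip3 and Mpc1 (6 libraries each) and Ldha (5).

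Lactate is formed by lactate dehydrogenase and leaves the cell through monocarboxylate transporters. The LDH-A gene Ldha supplied 98.7% to 99.3% of LDH TPM in every library and measured 829, 828 and 685 normalized CPM in WT and 908, 893 and 810 in Ifnar1-/- libraries (log2 fold change -0.16, SE 0.16). Ldhb had 4.98 to 9.75 normalized CPM. The exporter MCT4, encoded by Slc16a3, made up 95.5% ± 0.7 of the TPM of the 2 transporters in WT and 93.7% ± 0.7 in Ifnar1-/- libraries (SD, n = 3). MCT1, encoded by Slc16a1 (chr3:104638668-104658462), took the remaining 4.55% ± 0.65 and 6.31% ± 0.73, and these shares did not overlap between the groups. Slc16a1 measured 33.3, 34.0 and 32.2 normalized CPM in WT and 57.1, 39.99 and 40.6 in Ifnar1-/- libraries, all higher than in WT, and the log2 fold change was -0.47 with an SE of 0.17 (adjusted p = 0.178). A same-strand gene, Gm43581, overlaps Slc16a1 and had counts equal to 16.8% of those of Slc16a1.

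Among the regulators, the 2 PFKFB enzymes set fructose 2,6-bisphosphate, the activator of phosphofructokinase. Pfkfb3 took 84.4% to 92.4% of their TPM, and measured 161, 195 and 149 normalized CPM in WT and 126, 152 and 144 in Ifnar1-/- libraries (log2 fold change 0.26, SE 0.15, adjusted p = 0.41). Pfkfb4 measured 28.5 to 34.9 over all libraries. Hif1a, the oxygen-regulated subunit of HIF-1, measured 1042, 830 and 712 in WT and 1175, 839 and 757 in Ifnar1-/- libraries. Its values followed the library number in the same order in both groups, and its log2 fold change was -0.10 (95% confidence interval -0.57 to 0.37). Bnip3, a mitophagy receptor and HIF-1 target, spanned only 122 to 142 normalized CPM (log2 fold change -0.10, SE 0.13).

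The genes of pyruvate entry into mitochondria held 4 of the 5 smallest p-values. Of these 8 genes, 4 had an unadjusted p below 0.05, beside 17.8% of all tested genes, and for 3 the WT group lay entirely below the Ifnar1-/- group, beside 12.2% of all tested genes. Pdha1 (chrX:160122209-160138413) encodes the E1 alpha subunit of the PDH complex that the kinases phosphorylate. It measured 58.6, 81.4 and 74.2 normalized CPM in WT and 112, 100 and 98.4 in Ifnar1-/- libraries, with no overlap (log2 fold change -0.54, SE 0.16, adjusted p = 0.118). Map3k15, on the opposite strand, overlaps it with counts equal to 15.1% of those of Pdha1. Of the other subunits, Pdhb (E1 beta) had a log2 fold change of -0.14 (SE 0.17) and Dlat (E2) of 0.05 (SE 0.18), both with overlapping groups. Mpc2 (chr1:165460637-165481214) encodes one chain of the mitochondrial pyruvate carrier. It measured 16.5, 20.2 and 19.2 in WT and 26.7, 23.4 and 36.4 in Ifnar1-/- libraries, again without overlap (log2 fold change -0.63, SE 0.20, adjusted p = 0.139). Without the filter on low counts, Mpc2 was called lower in WT monocytes, but not in any other alternative setting. With offsets for GC content and length, its log2 fold change was -0.38 (edgeR adjusted p = 0.41). The alternative settings gave Mpc2 log2 fold changes from -1.02 to -0.36. Mpc1, the partner chain, measured 39.4, 75.2 and 64.2 in WT and 53.8, 59.5 and 65.8 in Ifnar1-/- libraries (log2 fold change -0.01, SE 0.22).

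Of the PDH kinases Pdk1, Pdk2 and Pdk3, the 2 with the higher levels showed opposite values. Pdk1 (chr2:71873224-71903858), a HIF-1 target, measured 39.6, 48.5 and 47.2 normalized CPM in WT and 53.6, 63.5 and 63.3 in Ifnar1-/- libraries, with all WT values lower (log2 fold change -0.42, SE 0.14, adjusted p = 0.17). On the rescaled TPM scale the levels of Pdk1 overlapped, at 30.9, 46.9 and 32.7 in WT and 39.96, 56.5 and 52.7 in Ifnar1-/- libraries. Pdk3 (chrX:93764607-93832201) measured 44.0, 64.4 and 48.2 in WT and 27.5, 46.8 and 36.4 in Ifnar1-/- libraries, overlapping between the lowest WT and the highest Ifnar1-/- library (log2 fold change 0.50, SE 0.21, adjusted p = 0.256). Within each pair of libraries of 1 number, Pdk3 was higher in WT, although the labels do not say what a number marks. As shares of the summed TPM of Pdk1, Pdk2 and Pdk3, Pdk3 took 59.5%, 58.0% and 61.0% in WT and 40.3%, 46.0% and 40.3% in Ifnar1-/- libraries. Pdk1 took 38.4%, 39.0% and 36.5% in WT and 54.3%, 50.5% and 53.4% in Ifnar1-/- libraries. Among these kinases, Pdk3 was the most abundant transcript in every WT library and Pdk1 in every Ifnar1-/- library. Pdk4 was not included in these shares. Pdk2 took 2.57% ± 0.42 and 5.07% ± 1.35, without overlap, whereas its normalized CPM overlapped (1.71 to 4.05 over the 6 libraries).

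To compare related genes within the same library, 13 pairs were compared between the genotypes on the scale of log2 TPM ratios with 0.5 added to each deposited TPM. The groups did not overlap for 3 of the 13 pairs, beside 23.4% of single tested genes whose levels did not overlap in either direction. The log2 ratio of Pdk3 to Pdk1 was 0.63 ± 0.08 in WT and -0.31 ± 0.16 in Ifnar1-/- libraries (SD, n = 3), a difference of 0.95. The same ratio from normalized CPM differed by 0.92, also without overlap. The log2 ratio of Mpc1 to Mpc2 was 2.04 ± 0.29 and 1.05 ± 0.27, a difference of 0.98. In normalized CPM that difference was 0.55 and the groups overlapped, so its separation rested on the transcript lengths that RSEM assigned in each library. The log2 ratio of Slc16a1 to Slc16a3 was -4.31 ± 0.22 and -3.83 ± 0.17, a difference of -0.48, and in normalized CPM it was -0.53, also without overlap. Each of the 3 pairs had a two-sided exact permutation p of 0.1, the smallest that 3 libraries against 3 allow, and an adjusted p of 0.433 over the 13 pairs. The other 10 pairs overlapped, with exact permutation p from 0.2 to 0.8.

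**Figure D3:**
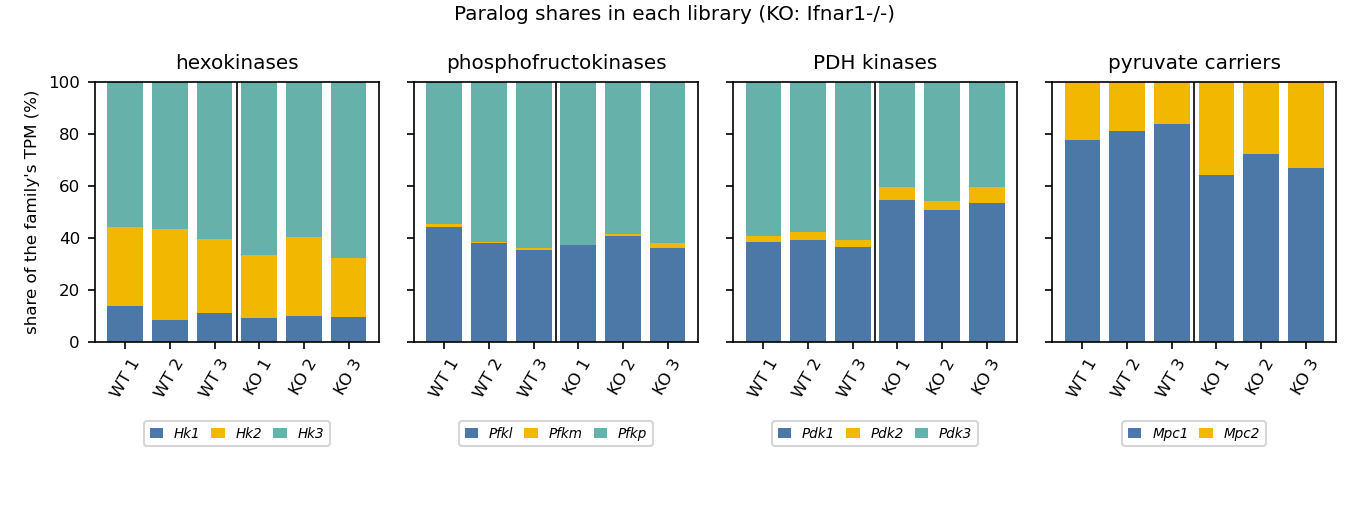
Share of each family's TPM (y axis, %) taken by each paralog in every WT and Ifnar1-/- (KO) library, for hexokinases, phosphofructokinases, PDH kinases and mitochondrial pyruvate carriers. Pdk3 held 58.0% to 61.0% of the TPM of Pdk1, Pdk2 and Pdk3 in WT and 40.3% to 46.0% in Ifnar1-/- libraries, whereas hexokinase and phosphofructokinase shares overlapped between the groups.

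In the pentose phosphate pathway, values were close between the genotypes. The oxidative branch, which makes NADPH, is formed by G6pdx, Pgls and Pgd. Pgd measured 293 to 318 normalized CPM in all 6 libraries, its highest value being 1.08 times its lowest, with a log2 fold change of 0.00041 (95% confidence interval -0.30 to 0.30). G6pdx, the rate-limiting dehydrogenase, measured 111 to 130 (log2 fold change -0.0046, 95% confidence interval -0.30 to 0.29), and Ikbkg overlaps it on the opposite strand with counts equal to 27.9% of its own. Pgls measured 34.6, 43.1 and 38.9 in WT and 25.04, 38.6 and 33.3 in Ifnar1-/- libraries (log2 fold change 0.26, SE 0.18). In the non-oxidative branch, Tkt and Taldo1 had log2 fold changes of -0.04 and -0.12 with overlapping groups. Rpia, ribose 5-phosphate isomerase (chr6:70765720-70792232), measured 22.1, 20.4 and 21.3 in WT and 29.5, 22.9 and 24.8 in Ifnar1-/- libraries. All WT values of Rpia were lower in normalized CPM but not on the rescaled TPM scale, and the log2 fold change was -0.27 with an SE of 0.16 (adjusted p = 0.409).

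Over all 39 genes tested, WT libraries lay entirely below Ifnar1-/- libraries for 6 genes (Pgk1, Slc16a1, Pdk1, Pdha1, Rpia and Mpc2), or 15.4%, beside 12.2% of all tested genes. For 0 genes did they lie entirely above, beside 11.1% of all tested genes. By role, the median log2 fold change ran from -0.28 for pyruvate entry and -0.22 for lactate to 0.27 for hexokinases, and the medians of uptake, upper and lower glycolysis, regulators and the pentose phosphate pathway lay between -0.02 and 0.09. Across all genes the log2 fold change rose with GC content (Spearman's rho 0.368 over 11242 genes, a description over genes of the same 6 libraries), and the median GC content of the genes described here was 52.8% beside 49.96% for all tested genes. With offsets for GC content and length, 13 of the 39 changed sign, 13 were positive and 26 negative, the median was -0.07 beside -0.02 for all genes, and 0 were called. With these offsets the median was 0.13 for hexokinases and -0.17 for pyruvate entry, and those of uptake, upper glycolysis and lower glycolysis turned negative (-0.04, -0.04 and -0.09).

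Several of these genes varied with library number. The highest library had the same number in both groups for 17 of the 39 genes (43.6%), beside 35.6% of all tested genes, and all 3 libraries fell in the same order for 13 (33.3%), beside 18.8%. Slc2a1 and Hk2 were highest in library 2 and lowest in library 3 of each genotype, and Slc2a3 was highest in library 3. Adpgk, Ngp and S100a9, picked after their values were seen, were also highest in library 3. Adpgk, an ADP-dependent glucokinase, measured 26.5, 26.1 and 79.2 normalized CPM in WT and 39.7, 26.4 and 73.0 in Ifnar1-/- libraries. The neutrophil granule gene Ngp measured 74.6, 165 and 677 in WT and 203, 180 and 603 in Ifnar1-/- libraries, and the alarmin gene S100a9 measured 42.7, 170 and 509 in WT and 267, 166 and 734 in Ifnar1-/- libraries. The 9 neutrophil markers together summed to 427, 793 and 1986 in WT and 946, 847 and 2290 in Ifnar1-/- libraries, and their part in the values of Slc2a3 was not tested.

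**Figure D4:**
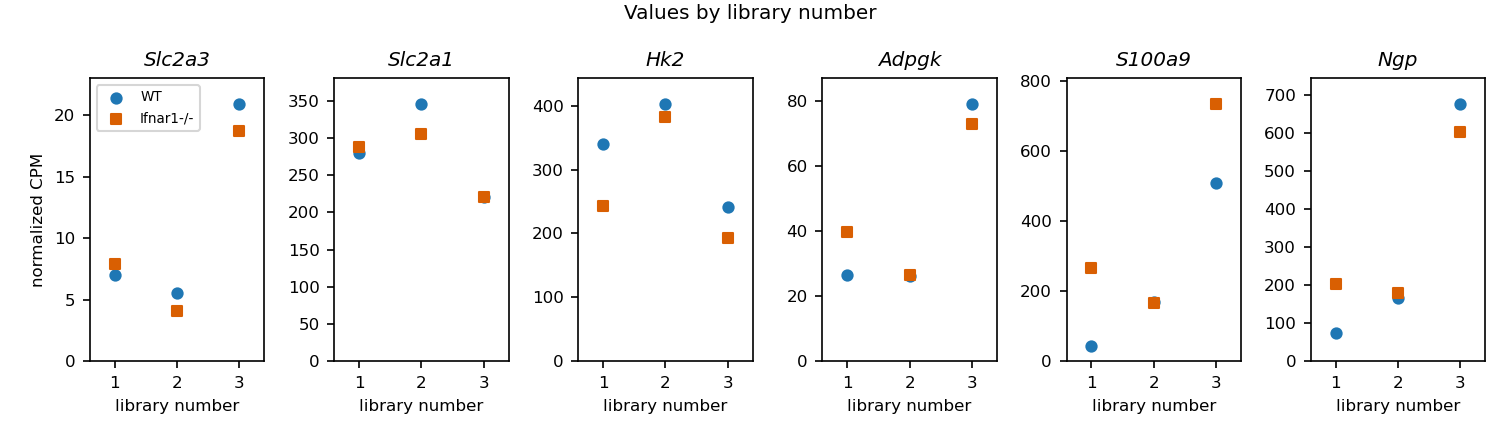
Normalized CPM (y axis, from 0) by library number for Slc2a3, Slc2a1, Hk2 and Adpgk and for the neutrophil-associated genes S100a9 and Ngp, with WT libraries as circles and Ifnar1-/- libraries as squares. Library 3 was highest in both genotypes for Slc2a3, Adpgk, S100a9 and Ngp, and lowest for Slc2a1 and Hk2.

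Further genes of the same pathways gave 0 calls in each of 5 lists. Among other glycolytic genes, 12 of 27 were tested, 7 were positive and 5 negative, and the largest log2 fold changes were those of Bpgm, which makes 2,3-bisphosphoglycerate (-0.59, SE 0.28), and the muscle enolase Eno3 (0.33). Among other pentose phosphate genes, 7 of 10 were tested and 6 were negative, with ribokinase Rbks (-0.39) and Pgm2l1 (-0.35) the largest. Among other pyruvate genes, 9 of 15 were tested and 5 were negative. There the largest value was that of Dld (-0.35), the E3 subunit shared by PDH and 2-oxoglutarate dehydrogenase, followed by that of Pdp1 (-0.33), a phosphatase that reactivates PDH. Dld measured 48.7, 63.8 and 54.7 normalized CPM in WT and 79.7, 66.1 and 66.6 in Ifnar1-/- libraries, without overlap. All 22 genes of the TCA cycle list were tested, and 20 were negative with a median of -0.15, beside 48.2% positive and a median of -0.014 over all tested genes. For 6 of the 22, WT libraries lay entirely below Ifnar1-/- libraries, as they did for 12.2% of all tested genes. Idh3a, the catalytic subunit of NAD-dependent isocitrate dehydrogenase, measured 33.9, 38.9 and 35.5 in WT and 59.7, 56.3 and 49.5 in Ifnar1-/- libraries. The log2 fold change of Idh3a was the largest of that list at -0.61 (SE 0.14) with an adjusted p of 0.0558, and Suclg2 followed at -0.46. Idh3a was called lower in WT monocytes without the filter on low counts, with DESeq2 and with upper quartile normalization.

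Of 24 genes of the HIF-1 pathway and its targets, 20 were tested, of which 8 were positive and 12 negative, with a median of -0.04. The largest values were those of Ddit4, a stress-induced inhibitor of mTORC1 (log2 fold change 0.74, SE 0.24, adjusted p = 0.147), and Epas1, which encodes HIF-2 alpha (0.63). Ddit4 measured 35.9, 24.7 and 25.3 normalized CPM in WT and 22.9, 13.4 and 15.1 in Ifnar1-/- libraries, with every WT library higher. It was called without the filter on low counts. HIF-1 targets among the genes described here had values in both directions, with Pdk1 at -0.42, Pgk1 at -0.29 and Ldha at -0.16 against Hk2 at 0.27 and Pfkfb3 at 0.26, and 0 of them passed the test.

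**Figure D5:**
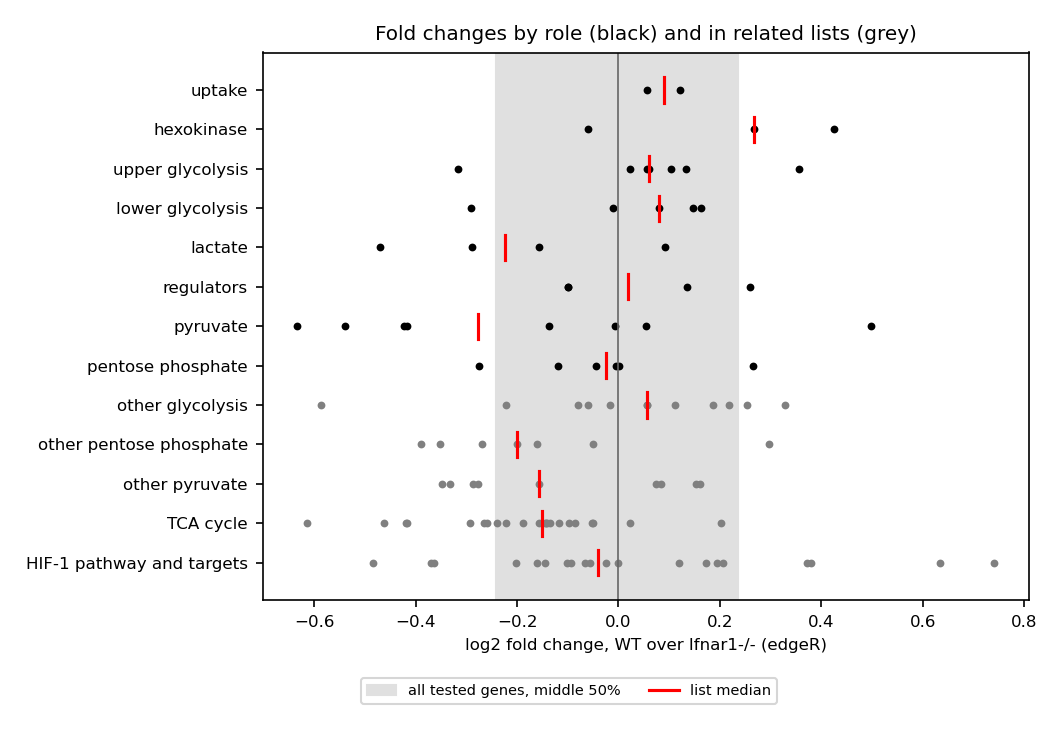
Log2 fold changes of WT over Ifnar1-/- monocytes (x axis) for the tested genes of each role (black) and of the 5 related lists (grey), with the median of each row in red and the middle 50% of all tested genes (-0.24 to 0.24) as a grey band. The median of the pyruvate row lay at -0.28 and that of the TCA cycle row at -0.15, while most glycolytic genes lay within the band.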

How the data were processed

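RNA-seq covered 3 WT and 3 Ifnar1-/- libraries, grouped by genotype from the deposited labels. The authors aligned reads to GRCm38 (STAR 2.6.0c and RSEM 1.2.31 per the labels) and deposited expected counts, which are estimated and not normalized, together with TPM, which the authors corrected for length and set to 1 total for all libraries. The labels and the study's methods name different stranded kits, and whether strand was used in counting is not given in the sources used here. GENCODE M21 named 54165 of 54232 gene identifiers. Of 2 identifiers named Aldoa, ENSMUSG00000030695 was used.

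Expected counts were rounded to whole numbers and tested by the quasi-likelihood method of edgeR 4.0.16 (R 4.3.3) after filterByExpr with a minimum count of 10 and TMM scaling, with Benjamini-Hochberg adjustment over all tested genes and without a block. The same step was tested on simulated data. Normalized CPM are counts scaled by the TMM-adjusted library size to a total of 1000000. Deposited TPM were rescaled to nuclear protein-coding genes because the 7SL and 7SK RNAs took 14.2% to 38.4% of TPM, and paralog shares do not depend on that rescaling. Those shares were taken over the family members among the 40 genes, without further paralogs such as Pdk4. Pairs of paralogs were compared by a two-sided exact permutation test (scipy 1.17.1). A floor of 3 counts corresponded to 0.41 to 0.662 CPM of the unadjusted library totals, for counting error only. Alternatives were other normalizations, filters, offsets for GC content and length, a replicate block, DESeq2 1.42.0, limma 3.58.1 on voom weights or log2 TPM, and leaving out each library. Limma on rescaled TPM, levels on rescaled TPM, and leaving out both libraries numbered 3 were chosen after seeing the data.

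Named genes were the 40 members, Ifnar1 and every called gene of the other lists. The 2 tested genes with the largest absolute log2 fold change were named for each other pathway list and the monocyte and T cell lists. Of the neutrophil list, Ly6g, S100a8, Csf3r and Retnlg were named. Adpgk, Ngp and S100a9 were picked after their values were seen. Some genes overlapping a member were named beside it. The members and lists were chosen with earlier results of these data known. Upstream sequences came from RefSeq.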

Additional observations from a re-analysis of the deposited data

How the results depend on the processing

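Of the 39 genes tested, 0 were called in every alternative except no filter on low counts, where 1, Mpc2, was called (log2 fold change -0.64). Signs of uncalled genes changed for at most 7 of the 39, except with offsets for GC content and length, where 13 changed. The median over these genes ranged from -0.07 to 0.05. In the related lists, the count of 0 became 1 (Idh3a) with upper quartile normalization and with DESeq2, and 2 (Idh3a and Ddit4) with no filter on low counts. Over all genes, calls numbered 240, and 872 with no filter on low counts, 420 with DESeq2, 125 with limma on log2 TPM, 157 with limma on rescaled TPM, 95 without both libraries numbered 3, and 119 to 245 when 1 library was left out (119 without Ifnar1-/- library 1, 120 without Ifnar1-/- library 3 and 148 without WT library 3). The cause of these shifts was not tested, beyond fewer samples. The count of 6 genes with non-overlapping groups became 3 on deposited TPM (Slc16a1, Pdha1 and Mpc2) and 5 on rescaled TPM, where Pgk1 joined these and Pdk2 was the fifth, while Pdk1 and Rpia overlapped. It was 7 to 15 when 1 library was left out, which loosens the criterion. The 15 came without Ifnar1-/- library 2 and 10 without WT library 3. Shares over all tested genes were not set beside these changed counts, which are therefore no result about these genes. The 3 non-overlapping paralog pairs were 2 from normalized CPM and 3 to 5 when 1 library was left out (5 without WT library 3 or Ifnar1-/- library 2). No share over other gene pairs is given beside these counts either.

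Groups share replicate numbers, but the labels do not say what a number marks, and deviations of same-numbered libraries correlated at 0.0974, 0.0213 and 0.2317. Each WT library correlated best with its own number, and Ifnar1-/- library 2 correlated best with WT library 1 (0.0662). With a replicate block, 220 genes were called, and 0 of the 39 were called. For 5 of the 13 paralog pairs all same-numbered differences had the same sign, a looser criterion than the lack of overlap found for 3 pairs. Those 3 pairs meet it by definition, and no share over other gene pairs is given beside it. Eno2 was too low to be tested, and the intervals of Pdk2, Slc2a3 and Mpc2 reached beyond 2-fold.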
